A study of Mus musculus with 6 samples.

Results

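The 8 genes described here carry out or control the presentation of antigen by MHC class II: H2-Aa, H2-Ab1 and H2-Eb1 encode chains of the classical class II molecules, Cd74 the invariant chain, H2-DMa, H2-Oa and H2-Ob chains of the proteins that govern peptide loading, and Ciita the transactivator of the family. A gene was read by array features whose only gene symbol is its own, and each of the 8 genes had 1 such feature among the 19938 genes measured. The mice were of a mixed background of C57BL/6J, CD-1 and B6CBAF2 and all carried Axin2rtTA, which places a doxycycline-dependent activator under Axin2 control, together with TRE-H2BGFP, a histone fused to GFP that this activator switches on. Both groups therefore share the transgenes, the doxycycline given from P25 to P28 and the age of P28, and by the labels they differ only in the sort. Cells were released from the calvarial suture with 0.2% collagenase and sorted by GFP into Axin2+/GFP+ cells (3 samples) and Axin2-/GFP- cells (3 samples). Each sample pooled 6 to 8 mice, and the labels describe the samples within a group as biological replicates. No antibody against blood cells is named for this sort, so each group holds every cell type whose GFP lay within its gate.

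Classical class II molecules are pairs of an alpha and a beta chain that carry peptides of extracellular origin to the surface of B cells, dendritic cells and macrophages, where helper T cells read them. In the endoplasmic reticulum the pair binds the invariant chain, which fills the groove and steers the complex to endosomes. There proteases trim the invariant chain to a short fragment, H2-DM exchanges this fragment for antigen peptides, and H2-O holds H2-DM back. The class II genes share an upstream module to which the RFX complex, CREB and NF-Y bind, and CIITA, which is brought there by these proteins rather than by DNA, switches transcription on. Marrow of the skull lies close to the sutures, and developing B cells are among the cells it holds.

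The deposited values are log2 array intensities, with 1 array per sample. The upper quartile of the values lay at 3.721 to 3.760 for Axin2+/GFP+ and at 3.968 to 3.999 for Axin2-/GFP- arrays, which means that the groups were not brought to a common distribution. The 1190 olfactory and vomeronasal receptor genes, which serve here as a gauge of dim signal, had a median log2 change of 0.30 in Axin2+/GFP+ minus Axin2-/GFP- cells, against 0.14 over all genes. Axin2 itself had log2 values of 2.89, 2.54 and 3.07 in the Axin2+/GFP+ samples and of 2.18, 2.27 and 2.38 in the Axin2-/GFP- samples. All 3 GFP-positive values were higher, and the log2 change of 0.55 (standard error, SE, 0.19) had an adjusted p of 0.0802 from limma. Precision is limited by the number of arrays, 3 in each group. The limma p-values refer to the spread of a gene among these few samples, combined with a spread estimated over all genes.

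Class II genes were lower in Axin2+/GFP+ than in Axin2-/GFP- cells. Of the 8 genes, 6 were lower and 0 higher at an adjusted p under 0.05 in limma, where 11.4% of all genes were lower and 4.64% higher. At an unadjusted p under 0.05 the number higher was also 0, as it was in the methods' t-test. The falls ran from 39.2-fold for Cd74 to 2.70-fold for H2-DMa, and H2-Oa and Ciita did not pass the test. The samples of the 2 groups did not overlap for the same 6 genes, all with the Axin2+/GFP+ samples below; over all genes 17.8% did not overlap in that direction and 23.1% in the other. The median log2 change of the 8 genes was -2.88. In mixed cells of a sort, fewer cells of a type and less RNA per cell cannot be told apart.

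The share of genes called lower rose with signal, from 1.51% of genes with a mean log2 value under 3 to 20.6% at 3 to 5 and 36.4% at 5 or more. Of the class II genes, 3 of the 3 at 5 or more were called lower, 3 of the 4 at 3 to 5, and 0 of the 1 under 3, which was Ciita.

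**Figure D1:**
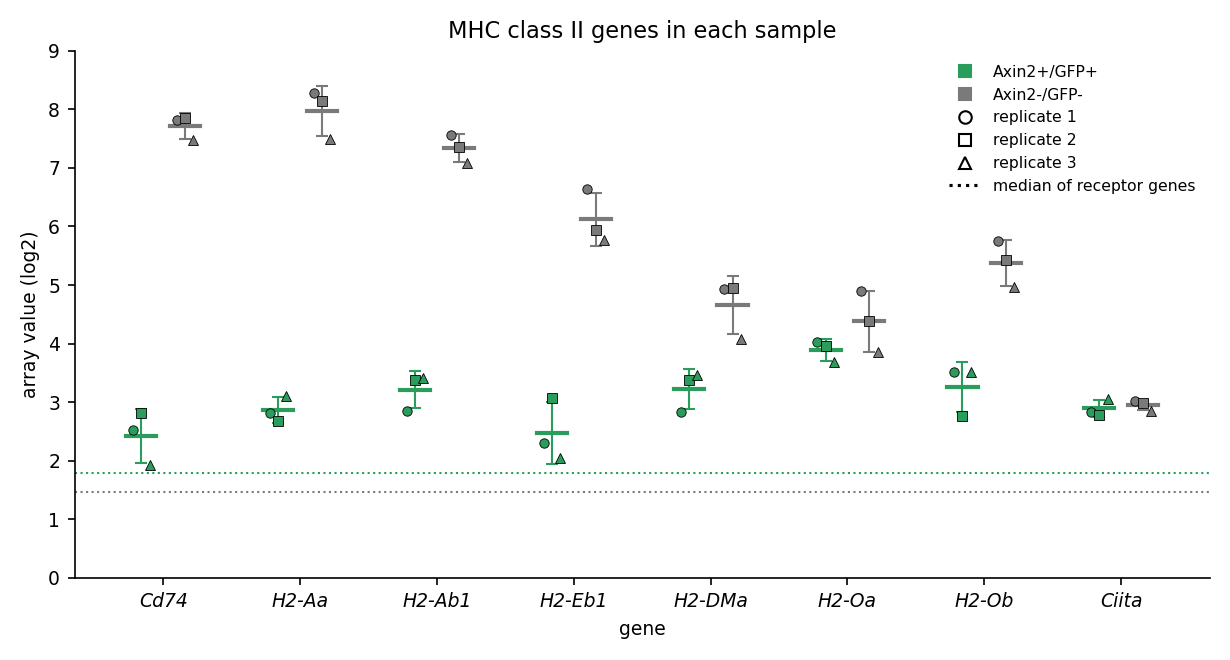
Log2 array value of each class II gene in each of the 6 samples, with Axin2+/GFP+ in green and Axin2-/GFP- in grey; symbols mark the replicates, horizontal bars the means, whiskers 1 SD (n = 3), and dotted lines the mean over samples of the median receptor gene in each group. The groups stand apart for Cd74, H2-Aa, H2-Ab1, H2-Eb1, H2-DMa and H2-Ob, overlap for H2-Oa and Ciita, and Axin2-/GFP- replicate 3 is the lowest grey symbol of every gene.

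Letters of the upstream module of the family were searched in the promoters of the RefSeq table (GRCm38.p6), which holds 5 of the 8 genes: H2-Aa, H2-Eb1, H2-DMa, H2-Oa and H2-Ob. Cd74, H2-Ab1 and Ciita are not in it. The window ran from 250 bases before to 50 bases after each start that the table lists, which for H2-DMa, H2-DMb2 and H2-Eb2 is not the outermost start of the RefSeq gene. Shown are the stretches around a GCAAC, the core letters of the X box that RFX binds, followed by an ATTGG, the Y box that NF-Y binds, for the 4 class II genes that hold this pair and for H2-Eb2, a beta chain gene that did not pass the test. Capitals mark GCAAC and ATTGG.
H2-Aa: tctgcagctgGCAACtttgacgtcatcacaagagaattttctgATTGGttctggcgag
H2-Eb1: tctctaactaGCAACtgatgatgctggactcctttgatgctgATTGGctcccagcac
H2-Oa: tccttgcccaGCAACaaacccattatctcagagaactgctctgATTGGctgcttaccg
H2-Ob: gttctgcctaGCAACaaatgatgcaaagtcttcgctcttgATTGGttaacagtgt
H2-Eb2: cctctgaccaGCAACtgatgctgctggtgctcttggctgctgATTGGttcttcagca

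These stretches lie at chr17:34287857-34287914 on the minus strand for H2-Aa and, on the plus strand, at chr17:34305766-34305822 for H2-Eb1, chr17:34092293-34092350 for H2-Oa, chr17:34238808-34238862 for H2-Ob and chr17:34325533-34325589 for H2-Eb2. In the 4 class II genes GCAAC began 76 to 91 bases before the listed start, which is the start of the RefSeq gene for these 4, and the start of ATTGG followed 30 to 33 bases after that of GCAAC. In H2-Eb2 both boxes lie before the listed start and after the outermost start of the gene. GCAAC followed on the gene strand by ATTGG, with 25 to 50 bases between their starts, occurred in 0.536% of the 32851 promoters of the table, a search chosen after these sequences had been seen. This spaced pair was absent from both H2-DMa windows and from those of H2-DMb1 and H2-DMb2. ATTGG on either strand was present in 5 of the 5 class II genes and in 37.4% of all promoters, and GCAAC on either strand in 35.2%. The search first set, with the X box core written as CCNNGNNAC, found the pair in H2-Oa and H2-Ob, as well as in H2-DMb1, and in 1.45% of all promoters on either strand. A match describes the letters of the window and not a bound site. The pair was present in genes with log2 changes from -5.11 for H2-Aa to -0.04 for H2-Eb2, whose signal was dim in both groups.

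**Figure D2:**
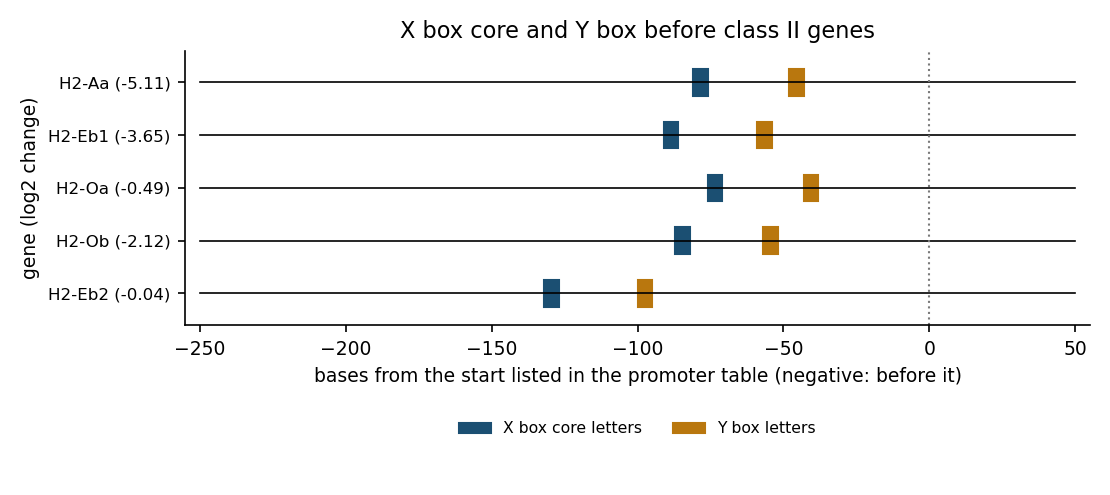
Position of the X box core letters (GCAAC, blue) and the Y box letters (ATTGG, orange) in bases from the start listed in the RefSeq promoter table on the horizontal axis, for the 5 genes that hold the pair, with the log2 change of each gene beside its name. The boxes keep nearly one spacing in genes whose changes run from -5.11 to -0.04. H2-Eb2 was dim in both groups, and the start listed for it is not the outermost start of that gene.

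Cd74, the invariant chain, had log2 values of 2.53, 2.82 and 1.92 in the Axin2+/GFP+ samples and of 7.82, 7.86 and 7.47 in the Axin2-/GFP- samples. Every Axin2-/GFP- sample was far above every Axin2+/GFP+ sample. The means were 2.42 ± 0.45 and 7.71 ± 0.21 (SD, n = 3 each), a log2 change of -5.29 (SE 0.25, 95% confidence interval -5.86 to -4.73, limma adjusted p = 1.92e-05). The level of Cd74 was reached by 17.8% of receptor genes in the Axin2+/GFP+ cells and by 0% in the Axin2-/GFP- cells. A fold against a level this dim depends on the background step of the array processing, which the sources used here do not give.

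H2-Aa, the alpha chain of the I-A molecule, had log2 values of 2.81, 2.67 and 3.10 in Axin2+/GFP+ cells and of 8.28, 8.15 and 7.49 in Axin2-/GFP- cells. The groups lay far apart, with Axin2-/GFP- replicate 3 below its 2 companions. The log2 change was -5.11 (SE 0.24, limma adjusted p = 1.92e-05), a 34.6-fold difference. H2-Ab1, the beta chain that pairs with it, had values of 2.85, 3.38 and 3.41 against 7.56, 7.35 and 7.09, again without overlap. Its log2 change was -4.12 (SE 0.22, limma adjusted p = 2.94e-05), a 17.4-fold difference.

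H2-Eb1, the beta chain of the I-E molecule, had log2 values of 2.30, 3.07 and 2.04 in Axin2+/GFP+ cells and of 6.64, 5.94 and 5.78 in Axin2-/GFP- cells. The groups did not overlap, and the spread within each was wider than for the I-A chains. The log2 change was -3.65 (SE 0.31, limma adjusted p = 0.000307), a 12.5-fold difference. As for Cd74, the mean of H2-Eb1 in Axin2+/GFP+ cells lay below the 90th percentile of receptor genes there (2.68), so the size of both changes depends on the floor of the array. In Axin2+/GFP+ cells 16.2% of receptor genes reached the level of H2-Eb1, 6.47% that of H2-Aa and 3.03% that of H2-Ab1, while in Axin2-/GFP- cells 0% reached any of the 3. Over the 17 other settings of the analysis the log2 changes of Cd74, H2-Aa, H2-Ab1 and H2-Eb1 stayed between -5.61 and -3.33, and each passed the test in all 17.

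Other chain genes of the region did not follow this pattern. H2-Eb2, a further beta chain gene, had log2 values of 2.88, 2.65 and 2.72 against 3.15, 2.59 and 2.64, which overlapped. Its log2 change was -0.04 (SE 0.20, limma adjusted p = 0.887). The level of H2-Eb2 was reached by 8.57% of receptor genes in Axin2+/GFP+ cells and by 4.03% in Axin2-/GFP- cells, so a small change was not detectable. H2-Ea, which RefSeq lists as a transcribed pseudogene, had a log2 change of 0.45 (limma adjusted p = 0.0850), at a level that 15.0% of receptor genes reached in Axin2+/GFP+ cells and 17.9% in Axin2-/GFP- cells.

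H2-DMa, the alpha chain of the H2-DM peptide exchanger, had log2 values of 2.83, 3.38 and 3.46 in Axin2+/GFP+ cells and of 4.93, 4.94 and 4.08 in Axin2-/GFP- cells. The groups did not overlap, though Axin2-/GFP- replicate 3 came within 1 log2 unit of the highest Axin2+/GFP+ sample. The log2 change was -1.43 (SE 0.28, 95% confidence interval -2.07 to -0.79, limma adjusted p = 0.0112), a 2.70-fold difference. Without Axin2-/GFP- replicate 1 it was -1.29 with an adjusted p of 0.0505 from limma, which ended the call. The beta chain of H2-DM is read here by a feature that carries both H2-DMb2 and H2-DMb1, near-identical copies, and so entered no test of genes. That feature had log2 values of 3.52, 3.47 and 3.35 in Axin2+/GFP+ cells and of 5.82, 6.63 and 5.41 in Axin2-/GFP- cells. Its samples did not overlap either, and it changed by -2.51 (adjusted p = 0.00929 in a limma fit to every feature).

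Of the 2 chains of H2-O, H2-Ob passed the test and H2-Oa did not. H2-Ob, the beta chain, had log2 values of 3.51, 2.77 and 3.51 in Axin2+/GFP+ cells and of 5.74, 5.43 and 4.96 in Axin2-/GFP- cells, with no overlap. The log2 change was -2.12 (SE 0.27, 95% confidence interval -2.74 to -1.49, limma adjusted p = 0.00179), a 4.34-fold difference. H2-Oa, the alpha chain, had values of 4.03, 3.96 and 3.69 against 4.90, 4.38 and 3.86, and Axin2-/GFP- replicate 3 lay inside the range of the Axin2+/GFP+ samples. Its log2 change was -0.49 (SE 0.26, 95% confidence interval -1.09 to 0.11, limma adjusted p = 0.221), and it passed the test in 0 of the 17 other settings.

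Within each sample the value of H2-Ob minus that of H2-Oa was -0.52, -1.19 and -0.17 in Axin2+/GFP+ cells and 0.85, 1.05 and 1.10 in Axin2-/GFP- cells. Every Axin2+/GFP+ value lay below every Axin2-/GFP- value. This pair was chosen after its values had been seen, so it is a description with no test, and the sign of a difference between features of unlike affinity carries no meaning by itself.

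Ciita, the transactivator, had log2 values of 2.84, 2.79 and 3.06 in Axin2+/GFP+ cells and of 3.01, 2.99 and 2.85 in Axin2-/GFP- cells. The groups overlapped, and the widest gap between any 2 of the 6 samples was smaller than the log2 change of any class II gene that passed the test. The log2 change was -0.05 (SE 0.17, 95% confidence interval -0.43 to 0.32, limma adjusted p = 0.825), and it passed in 0 of the 17 other settings. Its level was reached by 6.05% of receptor genes in Axin2+/GFP+ cells and by 2.69% in Axin2-/GFP- cells, so its signal was dim in both groups. A small change of a dim feature was not detectable on these arrays.

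The samples of the Axin2-/GFP- group kept much the same order across these genes. Replicate 3 of this group was the lowest of the 3 for 8 of the 8 genes, against 34.8% of all genes, and replicate 1 the highest for 6 of the 8, against 32.8% of all genes. The mean log2 value over the 8 genes was 6.11, 5.88 and 5.45 in Axin2-/GFP- replicates 1, 2 and 3, and the 3 Axin2+/GFP+ samples lay at 2.96, 3.10 and 3.02. The 12 pro-B and pre-B cell genes had their highest mean value, 7.24, in the same replicate 3, against 6.79 and 7.04 in replicates 1 and 2, and 10 of the 12 were highest there. Whether these differences in marker values bear on the class II values was not tested.

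The machinery around the class II molecules was described by 28 further genes with a feature of their own. Of these, 13 were lower and 0 higher in limma, against 11.4% and 4.64% of all genes, with a median log2 change of -0.97. Their mean log2 value was 3.87 to 3.93 in the Axin2+/GFP+ samples and 4.75 to 4.90 in the Axin2-/GFP- samples. By signal, 20.6% of genes with a mean log2 value of 3 to 5 were lower, and 36.4% at 5 or more. Whether the count among the 28 genes exceeds that of genes of like signal was not tested. At an unadjusted p under 0.05, 15 were lower and 2 higher, against 3505 and 3241 of all 19938 genes. Under quantile normalization 6 were lower and 1 higher, under cyclic loess 8 were lower and 2 higher, and in the methods' t-test 4 were lower, while the falls of Ifi30, Irf4 and Pax5 passed in all 17 other settings.

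Of the 9 endosomal genes, 5 were lower and 0 higher, against 11.4% and 4.64% of all genes. Ctss, the protease cathepsin S that makes the last cuts in the invariant chain in B cells and dendritic cells, had log2 values of 4.24, 3.58 and 2.67 in Axin2+/GFP+ cells and of 6.46, 6.45 and 6.06 in Axin2-/GFP- cells. Its log2 change was -2.82 (SE 0.36, limma adjusted p = 0.00157), with a wide spread among the Axin2+/GFP+ samples. Ifi30, the thiol reductase that opens disulphide bonds of antigens, had values of 4.03, 3.77 and 3.79 against 5.63, 5.74 and 5.68, a log2 change of -1.82 (limma adjusted p = 0.000394). Sppl2a, the membrane protease that clears the remnant of the invariant chain, changed by -0.995 (adjusted p = 0.00703), and its call was lost under quantile normalization (adjusted p = 0.0583). Lgmn, the asparagine endopeptidase, changed by -1.18 (adjusted p = 0.0117), with an adjusted p of 0.105 under quantile normalization and 0.0707 under cyclic loess. The other cathepsins were mixed: Ctsb was the remaining gene that fell (-0.97), a call lost in the methods' t-test, under quantile normalization (-0.51, adjusted p = 0.139) and under cyclic loess (-0.54, adjusted p = 0.113), and Ctsl, Ctsd and Ctsh, as well as Marchf1, a ubiquitin ligase that removes class II from the surface, had log2 changes between -0.03 and 0.27 and did not pass.

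Of the 7 proteins of the promoter module, the 3 subunits of NF-Y were lower and the 3 subunits of RFX did not pass. Lower were 11.4% of all genes and 20.6% of those with a mean log2 value of 3 to 5. Nfyc had a log2 change of -1.41 (adjusted p = 0.0191), Nfya of -1.14 (adjusted p = 0.0193) and Nfyb of -0.96 (adjusted p = 0.0376), all from limma. These calls were lost when single samples were left out, and the count of 3 became 1 without Axin2-/GFP- replicate 1, 1 without replicate 2 and 0 without replicate 3, as it became 0 under quantile normalization and 1 under cyclic loess. That of Nfyc was lost without Axin2-/GFP- replicate 2 (adjusted p = 0.0603) or replicate 3 (adjusted p = 0.0683), and that of Nfya without Axin2-/GFP- replicate 1 (adjusted p = 0.0598) or replicate 3 (adjusted p = 0.0507). That of Nfyb was lost when any 1 sample other than Axin2+/GFP+ replicate 2 was left out, with adjusted p-values of 0.0650 to 0.125. Rfx5, Rfxap and Rfxank, which lie outside the rule for named genes and were chosen after their values had been seen, had log2 changes of -0.06, 0.44 and -0.14 (adjusted p = 0.813, 0.125 and 0.550 from limma). Creb1, likewise outside the rule, had a log2 change of -0.76 (limma adjusted p = 0.0552) without overlap of the groups, and it passed in 5 of the 17 other settings, among them median centring (adjusted p = 0.0310) and without Axin2+/GFP+ replicate 3 (adjusted p = 0.0199).

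Of the 10 genes that act on Ciita or on interferon signals that reach it, 5 were lower and 0 higher, against 11.4% and 4.64% of all genes. Irf4, a factor of lymphoid cells, had log2 values of 2.28, 2.22 and 2.23 in Axin2+/GFP+ cells and of 6.66, 6.62 and 6.79 in Axin2-/GFP- cells. The groups did not overlap, and the log2 change was -4.45 (SE 0.16, limma adjusted p = 1.24e-05). In Axin2+/GFP+ cells 24.2% of receptor genes reached the level of Irf4, so the size of the change and the spread of that group depend on the floor of the array. Pax5, the factor that holds B cells in their lineage, had values of 3.47, 4.05 and 3.80 against 6.61, 6.63 and 7.003, a log2 change of -2.98 (limma adjusted p = 0.000112). Irf8, a factor of B cells, dendritic cells and monocytes, changed by -2.05 (adjusted p = 0.00250), and Ifngr2, a chain of the interferon gamma receptor, by -1.36 (adjusted p = 0.00704). Spi1, which encodes PU.1, a factor of myeloid and B cells, is outside the rule and was chosen after its values had been seen. It had values of 6.51, 6.77 and 6.93 in Axin2+/GFP+ cells and of 6.55, 6.30 and 5.97 in Axin2-/GFP- cells, which overlapped, and a log2 change of 0.46 (limma adjusted p = 0.156) that passed under quantile normalization (0.89, adjusted p = 0.0341) and cyclic loess (1.05, adjusted p = 0.0131).

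**Figure D3:**
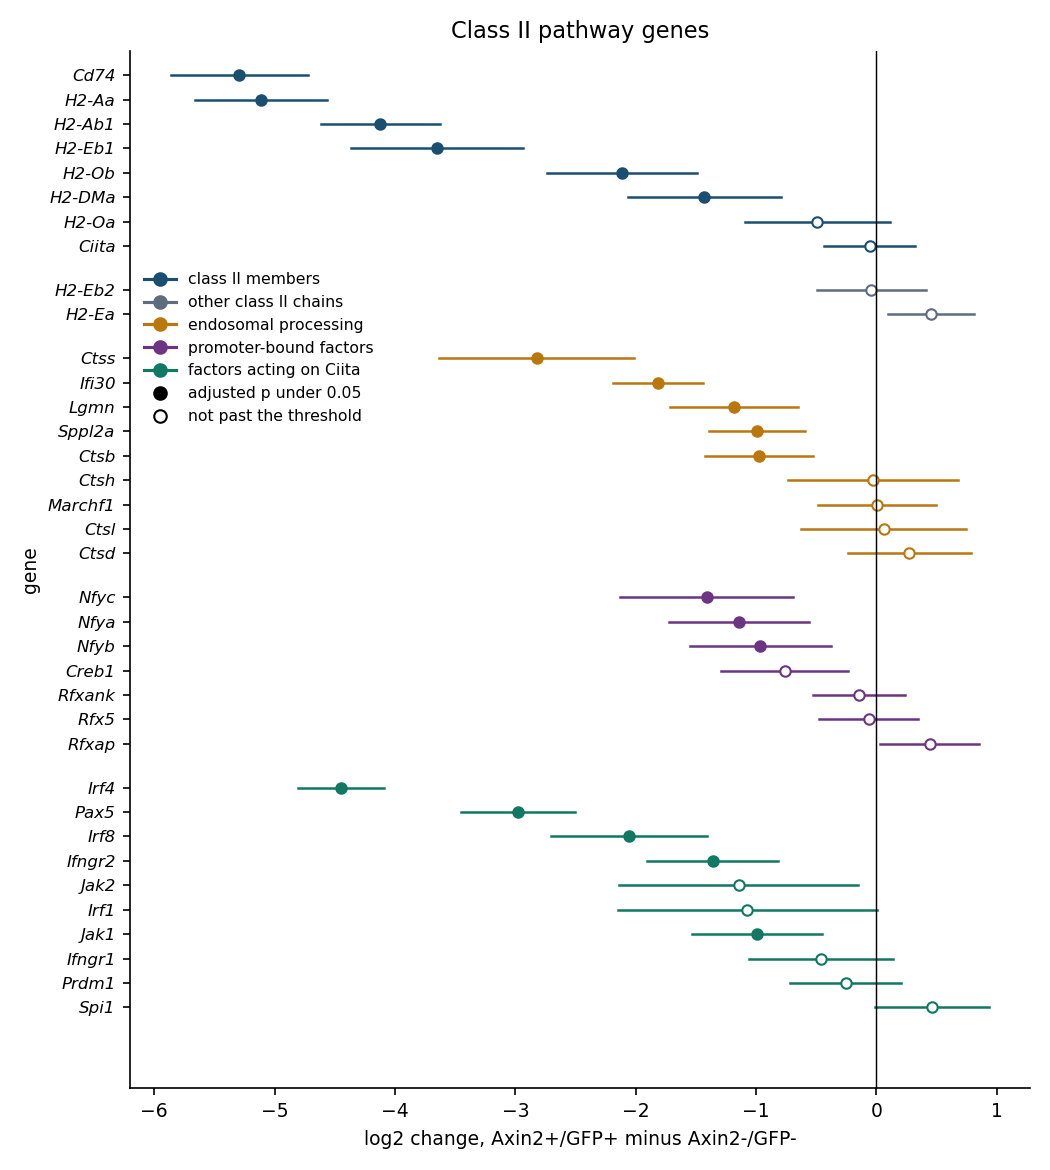
Log2 change of each class II gene and of the other genes of the pathway on the horizontal axis (points) with the 95% confidence interval from limma (lines), coloured by role; filled points have an adjusted p under 0.05. Cd74, both I-A chains and the I-E beta chain lie farthest to the left with Irf4, and Ciita and the RFX subunits lie near 0.

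Apart from Cd74 and Ciita, which lie on other chromosomes, the class II genes stand in one stretch of chromosome 17, with genes of class I presentation between them. In RefSeq order from H2-Oa, the log2 change was -0.49 for H2-Oa, -0.73 for Brd2 (limma adjusted p = 0.0194), a chromatin reader that is not part of the class II pathway, and -1.43 for H2-DMa. After the H2-DMb genes came Psmb9 (-0.65) and Psmb8 (-0.59), subunits of the immunoproteasome, interleaved with Tap1 (-0.996) and Tap2 (0.28), the peptide transporter, of which Tap1 passed the test (limma adjusted p = 0.0344). Then followed H2-Ob (-2.12), H2-Ab1 (-4.12), H2-Aa (-5.11) and H2-Eb1 (-3.65), and after them H2-Eb2 (-0.04) and H2-Ea (0.45). The 4 neighbours from H2-Ob to H2-Eb1 had larger falls than the other genes of this stretch with a feature of their own, though the feature shared by the H2-DMb genes fell by 2.51, more than H2-Ob. The call of Tap1 was lost when any 1 of the Axin2-/GFP- samples was left out, with adjusted p-values of 0.0759 to 0.115.

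**Figure D4:**
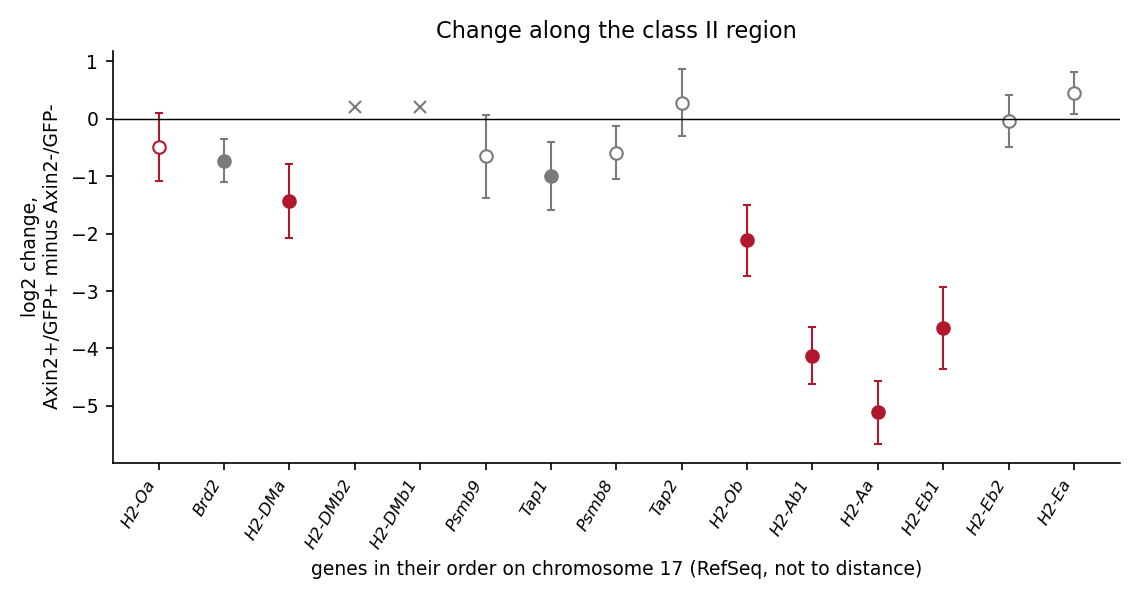
Log2 change (points) with the 95% confidence interval from limma (whiskers) for the protein-coding genes and the pseudogene from H2-Oa to H2-Ea in their RefSeq order on chromosome 17, not drawn to distance; class II genes of the set are red, filled points have an adjusted p under 0.05, and crosses mark the H2-DMb genes, which had no feature of their own. Among the genes plotted, the lowest points are H2-Ob, H2-Ab1, H2-Aa and H2-Eb1; the feature shared by the H2-DMb genes, at -2.51, is not drawn.

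Class I presentation is the pathway that shows peptides from within the cell. Of its 12 genes measured, 3 were lower and 0 higher, with a median log2 change of -0.49. Over all genes 11.4% were lower and 4.64% higher. By signal, 20.6% of genes with a mean log2 value of 3 to 5 were lower, and 36.4% at 5 or more. No excess over genes of like signal can be read from this count. B2m, the light chain shared by class I molecules, had log2 values of 8.88, 8.42 and 8.24 in Axin2+/GFP+ cells and of 10.03, 10.06 and 9.92 in Axin2-/GFP- cells. The groups did not overlap, and the log2 change was -1.49 (SE 0.20, limma adjusted p = 0.00221). Psmb10, a subunit of the immunoproteasome, changed by -0.997 (adjusted p = 0.0275), a call that was lost without any 1 of 4 samples (Axin2+/GFP+ replicates 1 and 3 and Axin2-/GFP- replicates 1 and 2), with adjusted p-values of 0.0617 to 0.0894. The heavy chain genes H2-K1 and H2-D1 are read by 2 features that carry both names, with log2 changes of -0.94 (adjusted p = 0.0766 in the fit to every feature) and -2.18 (adjusted p = 0.00297). These 2 features disagreed on whether the change passed the test. The count of 3 class I genes became 1 without Axin2-/GFP- replicate 1 or 2, 1 under quantile normalization or cyclic loess, and 7 when the arrays were centred on receptor genes.

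Of the 7 costimulatory and surface genes of presenting cells, 3 were lower and 0 higher, against 11.4% and 4.64% of all genes. Among genes with a mean log2 value of 3 to 5, 20.6% were lower. The median log2 change of the 7 genes was -0.60. Cd83, which steadies class II on the surface of mature dendritic cells and is also made by activated B cells, had log2 values of 4.05, 4.74 and 3.92 against 6.82, 6.90 and 6.19, a log2 change of -2.40 (limma adjusted p = 0.00102). Cd86, a ligand of CD28, had values of 1.29, 1.81 and 1.57 against 3.36, 3.28 and 2.40, a log2 change of -1.45 (adjusted p = 0.0103). In the Axin2+/GFP+ cells 66.9% of receptor genes reached the level of Cd86. Cd40 changed by -0.73 (adjusted p = 0.0417), and its call was lost without any 1 sample other than Axin2+/GFP+ replicate 2, with adjusted p-values of 0.0671 to 0.134.

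Markers of B lineage cells, dendritic cells, macrophages and T cells were read beside these values. Whether the pro-B and pre-B list and the mature B list tell these stages apart was not tested. Of the pro-B and pre-B cell genes 12 of 12 were lower (9 in the methods' t-test). Lower were 11.4% of all genes and 36.4% of those with a mean log2 value of 5 or more. The median log2 change of the pro-B and pre-B list was -4.40. The mean log2 value of the list was 2.944 to 3.196 in the Axin2+/GFP+ samples and 6.79 to 7.24 in the Axin2-/GFP- samples. Ebf1, a factor that starts the B lineage, changed by -5.72 and Cd79b, a signalling chain of the B cell receptor, by -5.28. Blnk, an adaptor of that receptor, changed by -4.89 and Il7r, the interleukin 7 receptor of early lymphoid cells, by -3.71. Of the 9 mature B cell genes 7 were lower and 0 higher (3 and 0 in the methods' t-test), with a median of -1.74 and a mean log2 value of 2.81 to 2.83 against 4.65 to 5.05. Among them Spib, a factor of B cells and plasmacytoid dendritic cells, changed by -5.63, Ms4a1, a B cell surface protein, by -3.13, Cd37, a tetraspanin of B cells, by -2.53, and Cd22, an inhibitory receptor of B cells, by -2.44. In Axin2+/GFP+ cells 37.4% of receptor genes reached the level of Ebf1, 15.6% that of Blnk and 15.9% that of Spib, so the sizes of these 3 changes depend on the floor of the array. Cr2, the complement receptor of mature B cells, had log2 values of 1.68 to 2.09 in Axin2+/GFP+ and 1.78 to 2.12 in Axin2-/GFP- samples, at the level of receptor genes in both.

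Most markers of dendritic cells, macrophages and T cells did not pass the test, by which 11.4% of all genes were lower and 4.64% higher. Of the 12 dendritic cell genes 2 were lower and 0 higher, with a median log2 change of 0.00 and a mean log2 value of 2.34 to 2.70 against 2.73 to 2.94. These were Ccr7, a homing receptor of dendritic cells and lymphocytes (-2.28, limma adjusted p = 0.000548), and Siglech, a lectin of plasmacytoid dendritic cells (-1.61, adjusted p = 0.00348). Of the defining markers, Xcr1, Clec9a and Itgax lay at a level that at least 17.1% of receptor genes reached in each group, and Zbtb46 at one that 6.22% and 4.20% reached. Of the 12 macrophage and monocyte genes 2 were lower and 0 higher, with a median of -0.06 and a mean log2 value of 2.84 to 2.90 against 3.08 to 3.28. These were Cd68, a lysosomal protein of macrophages (-1.49, adjusted p = 0.00203), and Ccr2, a chemokine receptor of monocytes (-1.41, adjusted p = 0.00895). Cx3cr1 (-0.65, limma adjusted p = 0.0613) and Csf1r (-0.60, limma adjusted p = 0.0838) did not pass, though their Axin2+/GFP+ samples all lay below the Axin2-/GFP- samples. Adgre1, Mrc1, Cd163 and Mertk had log2 changes from -0.16 to 0.20 and did not pass. The level of Cd163 was reached by 51.6% of receptor genes in Axin2+/GFP+ and 43.2% in Axin2-/GFP- cells. For Mrc1 these shares were 49.1% and 20.2%, for Mertk 32.4% and 20.7%, and for Adgre1 7.06% and 5.63%. A small change of such dim features was not detectable. Of the 9 T cell genes 1 was lower, Cd2 (-3.68), an adhesion molecule of lymphocytes, while Cd3d, Cd3e and Cd3g had changes from -0.21 to -0.08. In Axin2+/GFP+ and Axin2-/GFP- cells, 37.0% and 17.2% of receptor genes reached the level of Cd3d. For Cd3g these shares were 31.1% and 12.7%, and for Cd3e 2.44% and 0.92%. At an unadjusted p under 0.05 in limma, 3505 of all 19938 genes were lower and 3241 higher. By this measure 1 mature B cell gene and 1 dendritic cell gene were higher, and 0 pro-B and pre-B cell, macrophage and T cell genes. Lower were 12 pro-B and pre-B cell, 7 mature B cell, 3 dendritic cell, 4 macrophage and 1 T cell genes. Without features below the 90th percentile of receptor genes in both groups, the dendritic cell, macrophage and T cell medians were -0.58, -0.46 and -0.09. The part of any of these cell types in the class II values was not tested.

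The opposite direction was seen for neutrophil genes, of which 9 of 10 were higher and 0 lower, against 4.64% and 11.4% of all genes. The median log2 change of these neutrophil genes was 2.77. The count of 9 became 1 in the methods' t-test, 7 without Axin2-/GFP- replicate 2 and 8 without Axin2-/GFP- replicate 3. The mean log2 value of the list was 8.82 to 9.26 in Axin2+/GFP+ cells, and in Axin2-/GFP- replicates 1, 2 and 3 it was 7.32, 6.15 and 5.80. Thus Axin2-/GFP- replicate 1, where 6 of the 8 class II genes were highest, also had the most neutrophil signal of its group. Ltf, a granule protein, changed by 4.30, Elane, a granule protease, by 2.96, Cebpe, a factor of granule gene expression, by 2.58 and Mpo, the granule peroxidase, by 1.97. Of the 7 suture mesenchyme genes 2 were higher and 0 lower: Col3a1 (1.95) and Col1a1 (1.66), fibrillar collagen genes. Neither passed in the methods' t-test (adjusted p = 0.0506 and 0.0619). Twist1, Prrx1, Pdgfra and Msx2 had log2 changes from 0.18 to 0.88 and did not pass. Their part in the class II values was not tested.

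**Figure D5:**
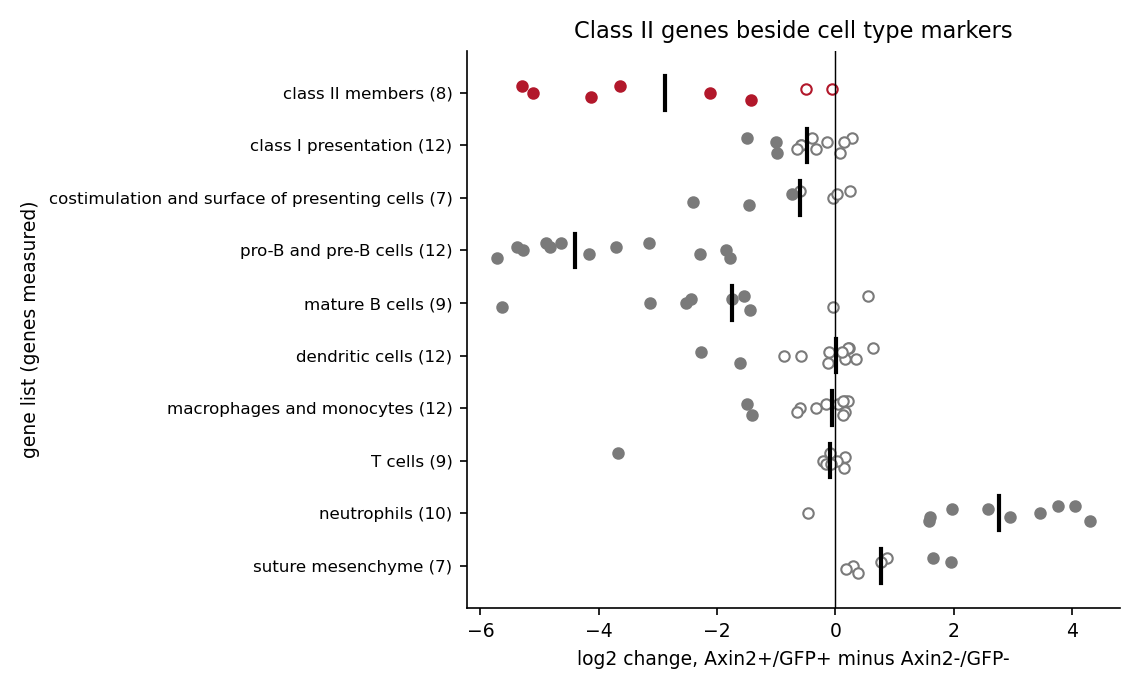
Log2 change of each gene (points, filled where the adjusted p is under 0.05 in limma) on the horizontal axis for the class II genes (red) and for gene lists (grey) with the number of genes measured in parentheses; black bars are medians. The class II median of -2.88 lies between those of pro-B and pre-B cells (-4.40) and mature B cells (-1.74), and the dendritic cell, macrophage and T cell medians lie near 0. With dim features dropped, which is not drawn, these 3 medians were -0.58, -0.46 and -0.09, and that of mature B cells was -2.44.

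The genes whose profile over the 6 samples was most like the median profile of the class II genes were Cse1l, Mef2c, Ms4a1, Elf1, Dusp2 and Rel. The measure was the root mean square difference, in log2 units, between a gene centred on its own mean and the median of the 8 centred class II profiles. It was 0.226 for Cse1l, an export receptor of the nucleus, 0.237 for Mef2c, a transcription factor, 0.242 for Ms4a1, 0.249 for Elf1, an ETS factor, 0.252 for Dusp2, a phosphatase of MAP kinases, and 0.260 for Rel, a subunit of NF-kB. For the class II genes themselves it ran from 0.463 for H2-Ob to 1.42 for Ciita, since their falls differed in size. All 6 genes had log2 changes between -3.13 and -2.54, near the median of the class II genes, and the likeness rests on the gap between the groups that all of them share.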

How the data were processed

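Total RNA of 6 sorted samples was labelled for Affymetrix whole-transcript arrays. The authors deposited log2 expression values per feature; per the submitters' notes they used RMA in R 3.2.1, while the background step and the level of summary are not given here. All columns matched a sample. Gene symbols came from the probe table of the platform, checked by gene identifier against RefSeq, which changed 0 names. Of 35557 features, 21789 carried 1 symbol and 1621 several (left out of gene tests), and 12147 are unnamed here. The brightest of a gene's features was used (999 genes had more than 1).

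Genes were tested with lmFit and eBayes of limma 3.58.1 (R 4.3.3) with no covariates, Benjamini-Hochberg adjustment over 19938 genes and a threshold of 0.05, checked on simulated data. The members, the lists and the naming rule (each member, up to 4 genes of each list with the smallest p among those that passed, the 6 most alike profiles) were chosen with earlier results of these data known. Other list genes named as not passing, and the genes of the region on chromosome 17, lie outside this rule and were picked after their values had been seen. Of 135 list genes 9 were not analysed as genes here, among them H2-DMb1, H2-DMb2, H2-K1 and H2-D1, which share features. Promoters were searched with Python 3.11.15.

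The alternatives were the methods' t-test, limma with an intensity trend, with array weights or with a replicate block, 4 scalings (cyclic loess, quantile normalization, and centring on the median or on receptor genes), dropping dim features, averaging the features of a gene, fitting every feature, and leaving out each sample. The t-test was held to a Benjamini-Hochberg adjusted p under 0.05, whereas the methods state a p under 0.05 and name no adjustment.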

Additional observations from a re-analysis of the deposited data

How the results depend on the processing

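All 8 class II genes had log2 changes below 0 in all 17 other settings, with 0 reversals. The number called lower, 6, became 4 in the methods' t-test with the adjustment added here, where H2-DMa (adjusted p = 0.102) and H2-Ob (adjusted p = 0.0609) were lost. It stayed between 5 and 6 when 1 sample was left out. H2-DMa ranged from -1.75 to -1.20 and H2-Oa from -0.81 to -0.18. Of the other pathway genes, 13 were lower in the main analysis, against 4 in the methods' t-test, 6 under quantile normalization and 8 under cyclic loess, and 9 to 13 when 1 sample was left out; 0 were higher, against 1 under quantile normalization and 2 under cyclic loess. The added calls were Spi1 in both and Ctsd in the latter. Over all genes 926 were higher and 2265 lower, against 459 and 2719 with median centring, 768 and 1266 with quantile normalization, 785 and 1468 with cyclic loess, 210 and 3980 when centred on receptor genes and 211 and 518 in the methods' t-test; the median log2 change of all genes, 0.14, became 0.03, 0.06, 0.01 and -0.18 in the 4 scalings. The cause was not tested.

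Deviations of samples with the same replicate number were weakly correlated over genes (0.031, 0.011 and 0.053), against -0.050 to 0.017 for unlike numbers. Such values from 3 arrays in each group cannot show whether the numbers pair the samples. With a replicate block 6 class II genes and 15 other pathway genes were lower. The number of arrays and dim signal limit what can be said of Ciita, H2-Eb2 and H2-Ea.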
